A study of Mus musculus with 2 samples.

Results

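Mir31 and Mir489 are the genes of miR-31 and miR-489, microRNAs tied to the resting state of satellite cells, the stem cells of skeletal muscle. They were chosen by name for this role, with earlier results of these data known, and are 2 of the 2202 microRNA genes measured. The data are microRNA sequencing libraries of C2C12 myocytes, of which there were 2, labelled biological replicates 1 and 2. C2C12 is an immortal mouse myoblast line from crushed thigh muscle of the C3H strain. These cells had been taken through 72 h of differentiation in culture. The series holds no other condition, so levels were described and set between genes and between the replicates, and no treatment or time effect was tested. As a model the line has limits here: it is a cycling myoblast line pushed into differentiation, not a resting satellite cell, and its cultures keep some undifferentiated cells beside the myotubes.

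A microRNA is cut from a hairpin precursor as a short strand from its 5p or 3p arm, and it pairs through its seed, bases 2 to 8, with sites in the 3′ untranslated region (UTR) of messenger RNAs, whose translation it lowers. In resting mouse satellite cells miR-31 is known for holding back Myf5, the mRNA of a myogenic regulatory factor, which is made ready but not translated until the cell is activated. miR-489 is known for repressing Dek, the mRNA of a chromatin protein that favours the growth of muscle progenitors, and it is lost as satellite cells are activated. miR-31 has also been described as a repressor of dystrophin (Dmd), the protein that ties the muscle fibre's actin to its membrane.

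The mature sequences are shown because their seeds decide which other microRNAs could act on the same sites. They are RefSeq's, on build GRCm38.p6, written 5′ to 3′ with the seed in capitals.
miR-31-5p: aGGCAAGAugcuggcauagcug
miR-31-3p: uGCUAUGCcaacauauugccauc
miR-489-3p: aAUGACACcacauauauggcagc
miR-489-5p: uGUCAUAUgugugaugacacuuucu
miR-425-5p: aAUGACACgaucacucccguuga
Among the 1738 mature mouse microRNAs of that table, none shared the seed of miR-31-5p, of miR-31-3p or of miR-489-5p. The seed of miR-489-3p was shared by 1 other, miR-425-5p, cut from Mir425 on chromosome 9 (108568777 to 108568861, plus strand). Lined up from the 5′ end, these sequences had the same base at 12 of 23 positions, the seed included, and they differ beyond it.

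Mir31 (ENSMUSG00000065408.1) lies at chr4:88910557-88910662 on the minus strand of mm10, inside exon 3, the last exon, of the long noncoding RNA gene AL805899.1. No other annotated microRNA gene lies within 50 kb. Mir489 (ENSMUSG00000070107.1) lies at chr6:3721897-3722003 on the minus strand. It is in an intron of Calcr, the calcitonin receptor gene, whose protein is itself a marker of resting satellite cells (intron 4 of the transcript with 16 exons). A further hairpin, Mir653, stands 511 bases away in the same intron. The hairpins are shown with both arms in capitals.
Mir31: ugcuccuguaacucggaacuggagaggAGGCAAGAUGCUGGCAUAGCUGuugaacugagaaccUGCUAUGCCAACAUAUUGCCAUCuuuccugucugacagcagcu
Mir489: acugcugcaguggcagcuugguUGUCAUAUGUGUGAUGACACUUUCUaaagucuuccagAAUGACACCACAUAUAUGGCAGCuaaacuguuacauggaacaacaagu
RNAfold gave the Mir31 hairpin a minimum free energy of -48.7 kcal/mol with 17 base pairs between its arms, and the Mir489 hairpin -37.6 kcal/mol with 19. Both sequences thus fold with paired arms in this prediction, which says nothing of how much is made.

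Only reads that mapped to a single place appear to have been counted, so a shared sequence can hide a microRNA. No 20-base stretch of Mir31 occurred, on either strand, in any of the 141765 other annotated M21 transcripts searched, its host transcript left out. For Mir489, 141761 transcripts were searched with those of Calcr left out, and the only match was bases 1 to 21 of the hairpin, on the opposite strand of Sash3. That stretch lies before both arms of Mir489, which take up bases 23 to 47 and 60 to 82. The rest of the genome was not searched, so reads of either gene held among the multi-mapped reads were not tested for.

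The 3′ UTRs of the known targets were searched on the transcript strand for the letters that pair with each seed. Myf5 had 1 match to the seed of miR-31-5p (TCTTGCC), starting at base 117 of its 1112-base 3′ UTR, and Dmd had 1, starting at base 780 of 3659. Both were followed by A, the base that makes the strongest class of seed site. Dek had 2 matches to the seed of miR-489-3p (GTGTCAT) in its 1286-base 3′ UTR, starting at bases 704 and 734, and the second was followed by A. The seeds of miR-31-3p (GCATAGC, in Myf5 and Dmd) and of miR-489-5p (ATATGAC, in Dek) had no match. The match of miR-489-3p is also that of miR-425-5p, letter for letter.

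The windows around these matches are shown because they are the places where the microRNAs would pair, with the match in capitals (coordinates mm10, sequence from M21 transcripts).
Myf5, chr10:107483885-107483914, minus strand: tgtaaatactgTCTTGCCactttatgagaa
Dmd, chrX:85203251-85203280, plus strand: tcttcaaatgtTCTTGCCacttcctaatgg
Dek, first match, chr13:47085346-47085375, minus strand: ttgccctcaaaGTGTCATcaatgtggttgt
Dek, second match, chr13:47085316-47085345, minus strand: gttaactctaaGTGTCATagaaattttata
Such matches are common. TCTTGCC was found in 11.2% of 21037 longest 3′ UTRs, in 9.63% of the 2782 within 20% of the length of that of Myf5, and in 25.1% of the 1806 within 20% of the length of that of Dmd. GTGTCAT was found in 9.17% of all of them and in 8.80% of the 2818 as long as that of Dek. A match of letters is a description of the sequence and not a measured site, and no mRNA was measured here.

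**Figure D1:**
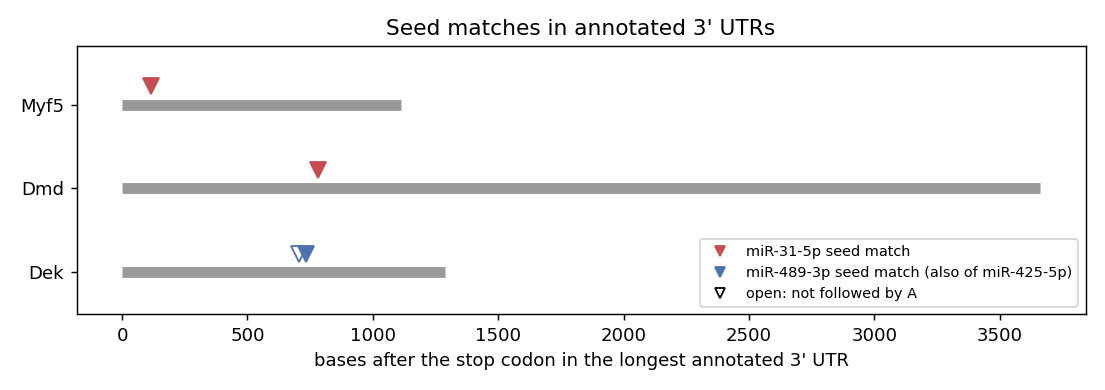
Seed matches in the 3′ UTRs of Myf5, Dmd and Dek, with the bases after the stop codon on the horizontal axis, a grey bar for the length of each UTR and a triangle at the first base of each match. The Myf5 match stands near the start of its UTR at base 117, and the Dek matches stand close together at bases 704 and 734, of which only the filled one is followed by A.

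The libraries held 15349205 reads in replicate 1 and 18450359 in replicate 2, of which 7581366 (49.4%) and 9865298 (53.5%) fell on the sense strand of microRNA genes. Levels are given as CPM, counts per 1000000 of these assigned counts. Genes with 10 or more counts in both libraries count as detected, and there were 314 of them. The muscle markers chosen for the labelled cell type, Mir206, Mir133b, Mir499 and Mir208b, were all detected. Their sum was 355274 CPM (replicate 1) and 428236 CPM (replicate 2), of which Mir206 alone had 340841 and 416794. The muscle genes Mir1a-1, Mir1a-2, Mir133a-1 and Mir133a-2 were not in this set. They had from 8 to 32 counts in a library, which are uncertain because of shared sequence, as given below. Of 17 markers of neurons, liver, blood, endothelium, epithelium and pluripotent cells, 3 were detected. Over all measured genes 14.3% were detected, so this count does not set the markers apart. All 17 together came to 316 CPM and 227 CPM. The detected ones moved in different directions: endothelial Mir126a had 217 CPM in replicate 1, against 42.9 in replicate 2, blood cell Mir142 had 89.0 and 178, and epithelial Mir205 had 4.35 and 3.35. The neuronal Mir124a genes, Mir200a, Mir290a and Mir302a were at 0 in both libraries, as were 67.8% of all measured genes. Nothing says whether the replicates were separately differentiated cultures, so the SDs given measure the spread between these libraries, which may be technical.

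Mir31 was abundant and Mir489 had no read in either library. For Mir31 there were 70809 counts in replicate 1 and 14777 in replicate 2, for Mir489 there were 0 and 0. Both hairpins had 0 counts on the opposite strand in both libraries, so every Mir31 read lay on the strand of the gene. A count of 0 allows up to 3 counts (the one-sided 95% limit), or 0.396 CPM in replicate 1 and 0.304 CPM in replicate 2. Against that limit in each library, Mir31 was at least 23603-fold higher than Mir489 in replicate 1 and at least 4926-fold higher in replicate 2. These limits and the intervals below cover counting error only, since the libraries carry no molecular identifiers and PCR copies are not independent molecules. Counts were not divided by length, because reads come from mature strands of nearly the same length (22 and 23 bases for the arms of Mir31, 25 and 23 for those of Mir489), and bias in adapter ligation between sequences was not tested.

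**Figure D2:**
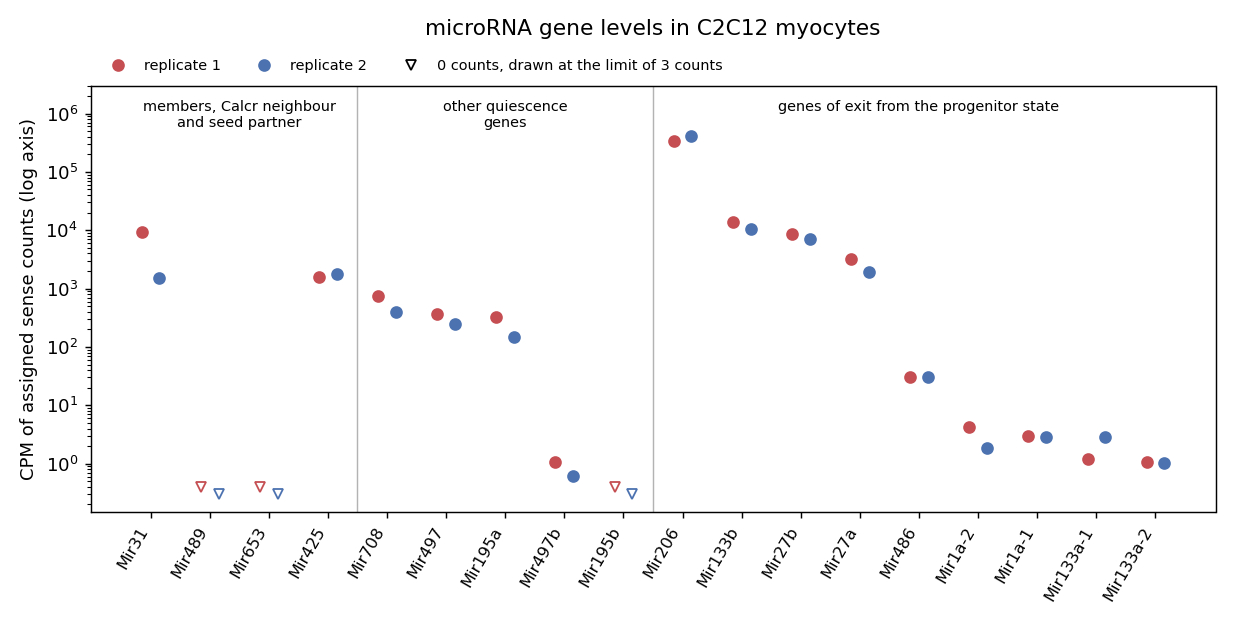
Level of each gene in replicate 1 (red) and replicate 2 (blue) as CPM on a log axis, with genes of 0 counts drawn as open triangles at the limit of 3 counts. Mir31 stands between 1498 and 9340 CPM, while Mir489, Mir653 and Mir195b sit at their limits of 0.396 and 0.304 CPM.

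In CPM, Mir31 had 9340 in replicate 1 (exact 95% Poisson interval 9271 to 9409) and 1498 in replicate 2 (1474 to 1522), a mean of 5419 ± 5545 (SD, n = 2). The intervals are far apart, and the SD is larger than the mean. Mir31 gave 1 assigned read in 107 in replicate 1 and 1 in 668 in replicate 2. It was the gene with rank 16 in replicate 1 and rank 47 in replicate 2, and rank 22 by mean. Of the detected genes, 292 (93.0%) had a lower mean. Its level can therefore be placed among the abundant microRNAs of these myocytes, but not more closely than within a 6.24-fold range.

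The order around Mir31 was not resolved by these replicates. Above it in mean level stood Mir149 with 7740 and 7995 CPM in replicates 1 and 2, Mir532 with 9014 and 5491, and Mir30a with 6120 and 6588. Below it stood Mir29a with 6134 and 4489 CPM, Mir17 with 6624 and 3652, and Mir335 with 7115 and 2157. All 6 fell inside the range that Mir31 itself spanned. In all, 43 detected genes had a range that overlapped that of Mir31, and they held places from rank 15 to rank 66 by mean.

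**Figure D3:**
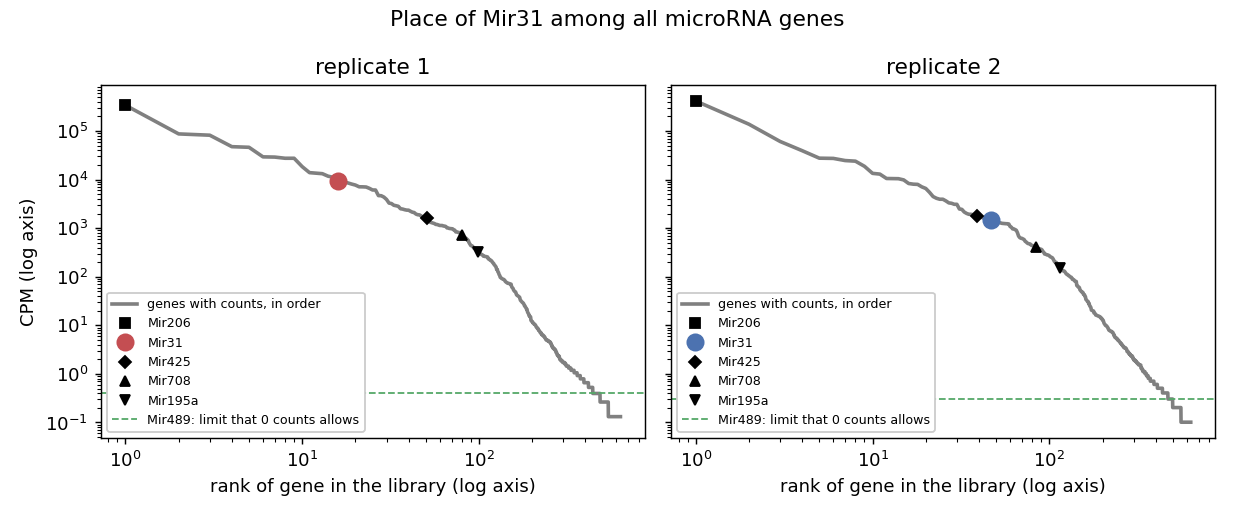
CPM of every gene with counts against its rank, both on log axes, for replicate 1 on the left and replicate 2 on the right, with Mir31 as the large coloured point and the limit that 0 counts of Mir489 allows as a dashed line. Mir31 moves from above Mir425 at rank 16 in replicate 1 to below it at rank 47 in replicate 2, and the dashed line lies near the lower end of the curve in both.

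The difference between the replicates was the largest, toward either library, among genes of this abundance. The log2 ratio of Mir31 (CPM + 1, replicate 1 over replicate 2) was 2.64. Among the 65 genes that averaged 1000 CPM or more no other had a larger one, and the median absolute log2 ratio of those genes was 0.46. Among the 133 genes with at least 100 CPM it ranked 3, and among all 314 detected genes it ranked 5, where log2 ratios ran from -1.99 to 3.34 with a median of 0.09. In the two-sided exact binomial test, adjusted by the Benjamini-Hochberg method over all detected genes, Mir31 had an adjusted p below the smallest number the software can hold. At this depth the test is often passed: it was passed by 66.6% of detected genes, and by 38.2% with the higher level in replicate 1. The share depended on the genes admitted: it was 40.9% of 555 genes with a minimum of 1 count and 88.8% of 187 genes with a minimum of 100. The test compares 2 libraries and not conditions. Among the markers of other cell types, endothelial Mir126a was also higher in replicate 1, by 5.06-fold, and its part in the Mir31 difference was not tested. Mir489 could not be tested, having no counts.

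The genes most like Mir31 over the 2 libraries, by the distance between log2(CPM + 1) values, were Mir34c, Mir335 and Mirlet7g. Mir34c, of a family known to be switched on by p53, was the nearest at a distance of 0.44, with 7130 CPM in replicate 1 and 1298 in replicate 2. Mir335, from an intron of the imprinted gene Mest, followed at 0.66 with 7115 and 2157 CPM. Mirlet7g, of the let-7 family of differentiation-associated microRNAs, stood at 1.04 with 4669 and 1221 CPM. Each of these 3 was higher in replicate 1, by 5.49-fold, 3.30-fold and 3.82-fold. With 2 libraries the likeness says no more than that both values were near those of Mir31.

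**Figure D4:**
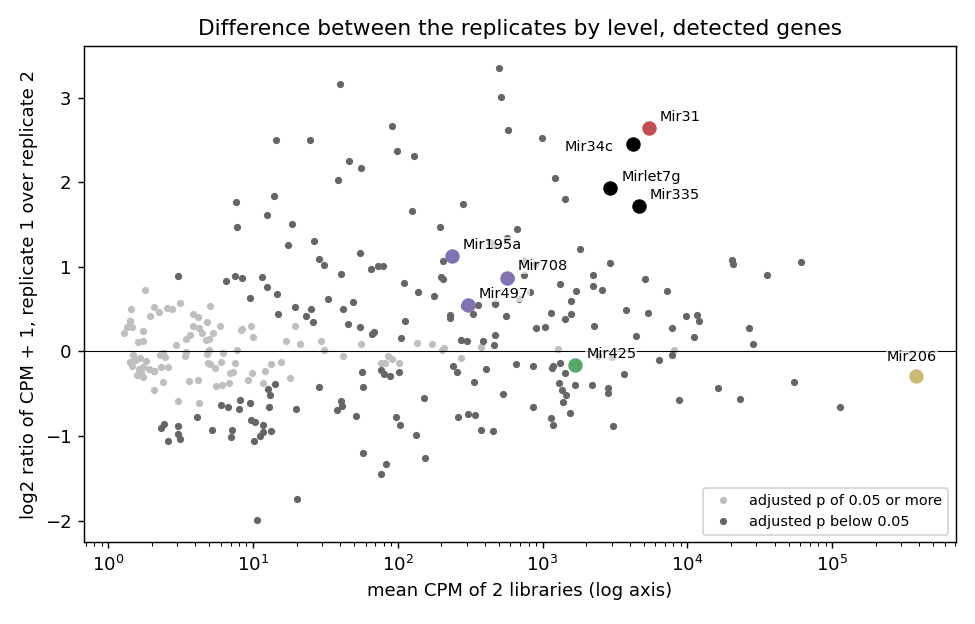
Log2 ratio between the replicates (CPM + 1, replicate 1 over replicate 2) against mean CPM on a log axis for the 314 detected genes, dark where the adjusted p was below 0.05. Mir31 and Mir34c lie at the upper right, with log2 ratios of 2.64 and 2.46, while Mir425 and Mir206 lie just below 0.

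The intron neighbour of Mir489 was at 0 as well. Mir653, the other hairpin of the Calcr intron, had 0 counts in both libraries and so the same limits. No count in both libraries is the commonest state of an annotated microRNA gene, found for 1494 of 2202 genes (67.8%), so 0 counts do not set Mir489 apart. Among detected genes, which have 10 or more counts in both libraries, the nearest to Mir489 could only be genes close to that minimum. They were Mir215 with 11 and 11 counts in replicates 1 and 2, Mir6977 with 12 and 11, and Mir6900 with 13 and 11. A low level of Mir489 in a few cells of the culture and its absence from all of them cannot be told apart in a bulk library, and likewise a lower Mir31 value can stand for fewer cells or for less RNA per cell.

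The hairpin gene whose 5p arm carries the seed of miR-489-3p was well covered. Mir425, which comes from the same hairpin cluster as Mir191 and is widely expressed, had 12059 and 17527 counts in replicates 1 and 2, or 1591 and 1777 CPM (mean 1684 ± 132, SD, n = 2, rank 44). The log2 ratio between its replicates was -0.16. Against the limit for Mir489 in each library, Mir425 was at least 4020-fold higher in replicate 1 and at least 5842-fold higher in replicate 2. Mir31 had 5.87 times the count of Mir425 in replicate 1 and 0.843 times in replicate 2, so the order of these genes was not the same in both libraries. The counts do not separate the arms of a hairpin, so the share of Mir425 reads that is miR-425-5p, and the share of Mir31 reads that is miR-31-5p, is not known.

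Other microRNAs described in satellite-cell quiescence were detected at lower levels than Mir31. Of the 7 measured genes of the list, 4 were detected (57.1%, against 14.3% of all measured genes): Mir31, Mir708, Mir497 and Mir195a. Mir708, known for keeping satellite cells in their niche by limiting migration, had 738 CPM in replicate 1 and 403 in replicate 2. Mir497 had 360 and 247 CPM, and Mir195a, its neighbour on chromosome 11, had 325 and 149. miR-195 and miR-497 are known for repressing cell-cycle genes, and they share a seed. Their sequences are shown for that reason, beside miR-708-5p, which has a seed of its own within the list.
miR-195a-5p: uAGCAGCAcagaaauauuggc
miR-497a-5p: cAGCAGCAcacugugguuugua
miR-708-5p: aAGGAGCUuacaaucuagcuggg
None of these carries the seed of miR-31-5p or miR-489-3p. Mir497b, on the strand opposite Mir497, had 8 and 6 counts, and Mir195b had 0 and 0. Mir497 overlaps Mir497b on the opposite strand, so the 20 bases they share do not by themselves make its counts uncertain. Mir708 shares 20 bases with Gm23134 on another chromosome, so its counts are uncertain.

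Mir31 held most of the quiescence list's counts, and its share moved with the library. The sum over the list was 10765 CPM in replicate 1, against 2296 CPM in replicate 2, and of this Mir31 made up 86.8% and 65.2%. Without Mir31 the sum was 1425 and 799 CPM (1112 ± 443, SD, n = 2). All 4 detected genes passed the binomial test with the higher level in replicate 1, against 38.2% of all detected genes. Their median log2 ratio was 1.00, against 0.09 over all detected genes. Each of the 4 had more than 100 counts in both libraries, where the test is passed more often. Of the 187 genes with that minimum, 104 passed with the higher level in replicate 1, and the median log2 ratio was 0.28. Mir31 itself is among the 4, Mir497 and Mir195a are neighbours, and the list was chosen with earlier results known. A list of 4 genes is too short to be set apart from these shares. Within a library, Mir31 had 12.7 counts for each of Mir708 in replicate 1 and 3.72 in replicate 2. It had 28.7 and 10.1 counts for each of Mir195a. Mir31 thus stood above the other detected genes of the list in both libraries.

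The microRNAs that act the other way, by repressing Pax3 or Pax7 or by favouring exit from the progenitor state, were led by Mir206. Of 9 measured genes 7 were detected (77.8%, against 14.3% of all measured genes). Of these 7, 4 passed the test with the higher level in replicate 1 and 1 with the higher level in replicate 2. The other 2 did not pass. Over all detected genes, 38.2% passed with the higher level in replicate 1 and 28.3% with the higher level in replicate 2. With a minimum of 100 counts these were 104 and 62 of 187 genes. A list of 7 genes is too short to be set apart from these shares of passing genes. The median log2 ratio of the 7 genes was 0.28, against 0.09 over all detected genes and 0.28 with the minimum of 100 counts. Mir206, a repressor of Pax7, had 36.5 counts for each count of Mir31 in replicate 1 and 278 in replicate 2, a 7.62-fold change of that ratio. The change is not particular to Mir206: it was 6.96-fold for Mir425, which is not of this list, and 4.84-fold for Mir133b. Mir31 alone differed by 6.24-fold between the libraries. Mir206 and Mir31 moved apart: Mir206 had 340841 CPM in replicate 1 and 416794 in replicate 2, the opposite order to that of Mir31. Mir27b, a repressor of Pax3, had 8643 and 7106 CPM, so that Mir31 was above it in replicate 1 and below it in replicate 2. Mir133b had 13610 and 10568 CPM and stood above Mir31 in both. Mir27a had 3220 and 1939 CPM. Mir486, a repressor of Pax7, had 31.1 and 30.7 CPM, below Mir31 and each of the other detected quiescence genes in both libraries.

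The remaining genes of that list had few unique counts. In replicates 1 and 2, the counts were 23 and 28 for Mir1a-1, 32 and 18 for Mir1a-2, 9 and 28 for Mir133a-1, and 8 and 10 for Mir133a-2. All of these, and Mir133b, Mir27a and Mir27b, share 20 bases with a microRNA hairpin on another chromosome, which Mir31, Mir489, Mir425 and Mir206 do not. The counts of the genes that share in this way are uncertain and may stand too low. Mir486 shares 20 bases with Mir3107, which overlaps it on the opposite strand. As for Mir497, this does not by itself make its counts uncertain, and whether they are affected otherwise was not tested.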

How the data were processed

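The authors deposited, for each library, raw counts per microRNA gene with no normalization. Per the labels, reads came from short RNA and adapters were trimmed. Per the deposited notes, the build was mm10 and the annotation M21. No source used here names the aligner or counter. The layout, with 4 leading entries and 3 strand columns, is that of STAR's gene table, which holds uniquely mapped reads. Sense-strand counts were used, the 4 entries (unmapped, multi-mapped, no gene, ambiguous) were left out, and symbols, coordinates and 3′ UTRs came from GENCODE M21. In replicates 1 and 2, 22.0% and 17.9% of reads were multi-mapped, 22.7% and 23.1% unmapped and 5.88% and 5.57% outside microRNA genes.

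CPM used library totals. Counts of the libraries were compared by a two-sided exact binomial test (scipy 1.17.1), adjusted by Benjamini-Hochberg at 0.05. The test was tested on simulated data that held counting error only, so its behaviour under further spread between replicates was not tested. With 1 group, no count model between conditions could be fitted. TMM factors (edgeR 4.0.16) and DESeq2 1.42.0 size factors were alternatives, and hairpins were folded with RNAfold 2.7.2. The genes named are both members, their neighbours within 50 kb, genes that share a seed, the 3 on each side of Mir31 in rank, the 3 most alike, and a list of quiescence genes and a list of genes of progenitor exit. Mir497a and Mir486b of these lists are no M21 symbols. Members and lists were chosen with earlier results of these data known.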

Additional observations from a re-analysis of the deposited data

How the results depend on the processing

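The Mir31 log2 ratio (replicate 1 over replicate 2) kept its sign and its call under all 9 alternatives, from 2.46 with Mir206 left out of the library totals to 2.64 with a pseudocount of 0.1 CPM or minimums of 1 or 100 counts. With a pseudocount of 10 CPM it was 2.63. The minimum of counts does not enter this ratio, and the pseudocounts are small beside 1498 and 9340 CPM, so these settings could hardly change it. It was 2.61 with TMM, 2.58 with DESeq2 size factors, 2.55 in the either-strand counts and 2.52 per all reads. Leaving Mir206 out moved the median log2 ratio of all detected genes to -0.09, against 0.09 with full totals. The mean level of Mir31 was 6058 CPM in the either-strand counts, 5378 with TMM and 5341 with DESeq2 size factors, against 5419 in the main setting. Per 1000000 of all reads, a larger denominator, it was 2707. Mir31 had the same counts in the either-strand setting, where genes such as Mir378a fall to 0 and the library totals are smaller. The SD of 5545 (n = 2) is larger than the mean, so it cannot serve to judge these shifts. Without replicate 1 or replicate 2 it was 1498 or 9340 CPM, so replicate 1 sets most of the mean. Mir489 stayed at 0 under each alternative, and its ratio has no value. The count of genes past the binomial test ran from 166 of 187 tested (88.8%) with a minimum of 100 counts to 227 of 555 (40.9%) with a minimum of 1, against 209 of 314. No paired analysis was possible because the series has 1 group. Depth limits Mir489: its counts of 0 allow levels of up to 0.396 and 0.304 CPM.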
